A study of Mus musculus with 6 samples.

Results

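The Hedgehog genes examined here were the ligands *Ihh* and *Dhh*, the receptor *Ptch1*, the transducer *Smo*, the inhibitors *Sufu* and *Hhip*, and the GLI transcription factors *Gli1*, *Gli2* and *Gli3*. They were taken by gene symbol from a table of 16300 genes. Of the 9 genes listed, 8 were analysed, and *Hhip* was not analysed here. RNA-seq was performed on 6 libraries of primary granulosa cell (GC) cultures from C57BL/6J wild type mice aged 8 to 9 weeks. The 3 control libraries came from GCs kept in media alone, and the 3 DHT libraries from GCs treated for 24 h with 25 nM dihydrotestosterone (DHT), an androgen that cannot be aromatized to estrogen. Each library came from the pooled GCs of several mice, so a mean over 3 libraries describes pools and not animals.

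In Hedgehog signalling, a secreted ligand binds PTCH1, which otherwise holds SMO inactive. Freed SMO works through the primary cilium, where it releases the GLI factors from SUFU and from processing into repressors. *Gli1* and *Ptch1* are themselves transcribed in response to the pathway in many tissues, and are often used as its readouts. In the ovary, GCs are known as the source of IHH and DHH, and the theca and stromal cells around the follicle as the cells that respond.

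The labels are not uniform, since the extraction text speaks of whole ovary and the treatment text lists DHT even for control samples. Groups were therefore assigned by the treatment characteristic of each sample. The libraries held between 36111177 and 41928585 reads on genes, where read numbers here and below are estimates worked back from the normalized counts. To check the labelled cell type, marker levels were summed in each library. The summed normalized counts per kilobase of exon were 61591 to 65665 in control and 51692 to 53827 in DHT over 11 granulosa markers. The sums were 27.5 to 30.8 and 25.0 to 33.6 over 4 endothelial markers, and 297 to 359 and 234 to 412 over 4 immune markers. They were larger for 3 theca markers (27449 to 31694 and 25160 to 25662, nearly all *Aldh1a1*) and for 5 smooth muscle markers (3051 to 4646 and 5580 to 6584). The theca markers *Cyp17a1*, *Insl3* and *Ptgir* were not analysed here, nor was the granulosa marker *Cyp19a1*.

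The values below are normalized counts, that is, reads scaled by a size factor per library. Differences are DHT minus control on the scale of log2(normalized count + 1), tested across all genes with limma and adjusted by the Benjamini-Hochberg method, with n = 3 libraries per group. None of the 8 Hedgehog genes had an adjusted p of at most 0.05, and none passed both that threshold and an absolute log2 difference above 1. Over the whole table, 11.2% of the 16292 genes tested passed the first threshold (1063 higher and 760 lower in DHT), and 1.31% passed both. By unadjusted p of at most 0.05, limma gave 3 of the 8 (*Ihh*, *Dhh* and *Ptch1*), against 25.2% of all genes. The groups did not overlap for 2 of the 8 (*Ihh* and *Ptch1*), against 30.6% of all genes. The log2 difference was positive for 5 and negative for 3, with a median of 0.07 over the 8 and of -0.0052 over all genes. The p-values set the difference between groups against the spread between these libraries, which limma draws in part from genes of similar level. In such bulk RNA, fewer cells of a type cannot be told apart from less RNA per cell.

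**Figure D1:**
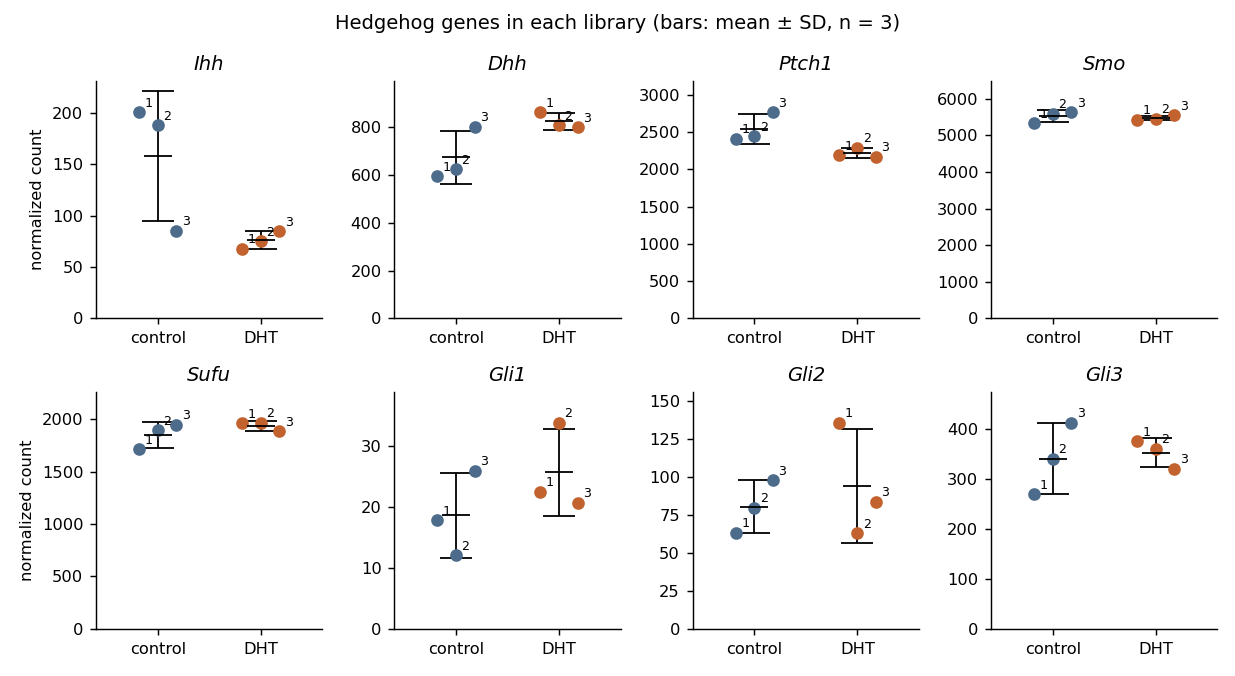
Normalized counts (y axis, from 0, a different range in each panel) of the 8 Hedgehog genes in control libraries (blue) and DHT libraries (orange), numbered by replicate. Lines show the mean ± SD of 3 libraries, and control library 3 sits at 85.2 for *Ihh* and 803 for *Dhh*, beside the DHT libraries.

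*Ihh* encodes Indian hedgehog, a ligand of growing follicles. It lies on chromosome 1 of GRCm38 (chr1:74945315-74951672, minus strand, ENSMUSG00000006538), and its exons overlap those of no other annotated gene. Its normalized counts were 200.9, 187.7 and 85.2 in control libraries 1, 2 and 3, and 67.5, 75.3 and 84.9 in DHT libraries 1, 2 and 3. Control libraries 1 and 2 were therefore far above the rest, whereas control library 3 lay just above DHT library 3. The control mean was 158 ± 63.3 and the DHT mean 75.9 ± 8.70 (SD, n = 3 each). The log2 difference was -0.96 (SE 0.29, 95% confidence interval -1.62 to -0.29), with an adjusted p of 0.072 in limma. These values rest on 92 to 203 reads per control library and 69 to 78 reads per DHT library.

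*Dhh* encodes Desert hedgehog, the other ligand made by GCs, and lies on chromosome 15 (chr15:98891152-98898540, minus strand, ENSMUSG00000023000). Its normalized counts were 594.7, 625.4 and 803.2 in control and 865.0, 810.5 and 801.0 in DHT. The groups overlapped, because control library 3 was above DHT library 3, while the other control libraries were below all DHT libraries. The control mean was 674 ± 113 and the DHT mean 826 ± 34.6 (SD, n = 3 each). The log2 difference was 0.30 (SE 0.10, 95% confidence interval 0.07 to 0.54), with an adjusted p of 0.11 in limma. Of the 4399 exonic bases of *Dhh*, 1107 overlap exons of *Gm49442* on the other strand, and 546 overlap exons of *Rhebl1* on the same strand, so its counts are uncertain to the extent that reads there were assigned or dropped.

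Both ligands thus had control library 3 at the level of the DHT libraries, in opposite directions. Without that library, *Ihh* differed by -1.35 (SE 0.15, 95% confidence interval -1.70 to -1.0, adjusted p 0.00070 in limma), past both thresholds. *Dhh* differed by 0.44 without it (SE 0.07, 95% confidence interval 0.29 to 0.58, adjusted p 0.0029 in limma), past the first threshold. In that fit 2 of the 8 Hedgehog genes passed the first threshold and 1 passed both, against 13.0% and 1.76% of 16225 genes. Leaving out any of the other 5 libraries gave neither ligand an adjusted p of at most 0.05. This fit leaves 2 control libraries, and control library 3 was singled out after its values were seen.

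**Figure D2:**
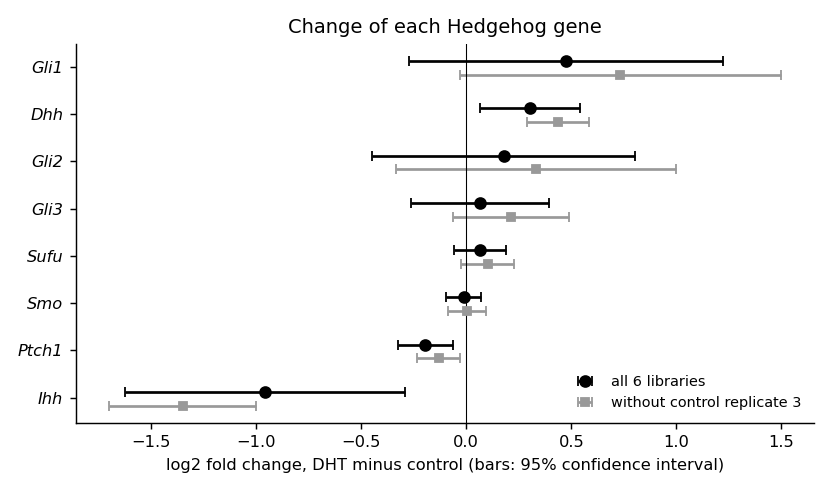
Difference of each Hedgehog gene between DHT and control (x axis, log2 of normalized count + 1), with 95% confidence intervals, from all 6 libraries (black circles) and without control library 3 (grey squares). *Ihh* lies at -0.96 and -1.35, and *Dhh* at 0.30 and 0.44, whereas *Smo* and *Sufu* lie between -0.01 and 0.10 in both.

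The balance of both ligands was also compared within each library. The *Ihh* count was 33.8%, 30.0% and 10.6% of the *Dhh* count in control libraries 1, 2 and 3. It was 7.81%, 9.29% and 10.6% in the DHT libraries. Control library 3 was again level with DHT library 3, at 10.611% against 10.598%, so the groups were separated by a margin far below the spread within either. The mean log2 ratio, with 1 added to each normalized count, was -2.17 ± 0.91 in the control libraries and -3.43 ± 0.22 in the DHT libraries (SD, n = 3 each). The difference of -1.26 had a two-sided p of 0.1 in the exact permutation test, the smallest that 3 libraries against 3 can give.

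**Figure D3:**
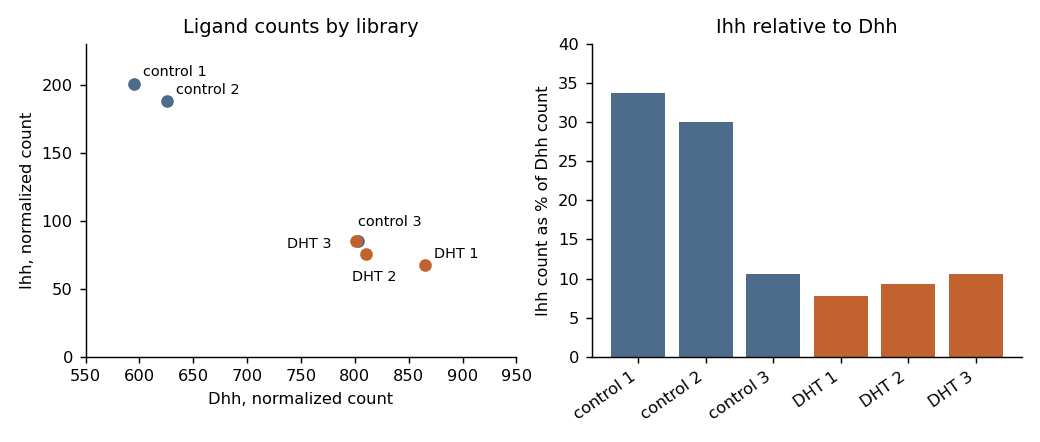
Left, *Ihh* against *Dhh* normalized counts in each library (the x axis does not start at 0). Right, the *Ihh* count as a percentage of the *Dhh* count. Control libraries 1 and 2 stand at 33.8% and 30.0%, and the other 4 libraries between 7.81% and 10.6%.

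To see where the ligands could share reads, the coding sequences of *Ihh* and *Dhh* were compared with each other. Their most alike stretch of 60 bases, from the GENCODE transcripts of GRCm38, is at coding bases 246 to 305 of *Ihh* and 234 to 293 of *Dhh*, and capitals mark the 8 bases that differ:
*Ihh*: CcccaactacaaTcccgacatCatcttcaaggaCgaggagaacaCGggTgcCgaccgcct
*Dhh*: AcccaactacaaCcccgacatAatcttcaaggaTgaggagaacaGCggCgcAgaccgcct
The longest run of identical bases anywhere in the whole transcripts of the ligands, untranslated parts included, was 16 bases, against reads of 150 bases.

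*Ptch1* encodes the Hedgehog receptor, which restrains SMO and is itself a target of GLI factors. It lies on chromosome 13 (chr13:63508328-63573598, minus strand, ENSMUSG00000021466). Its normalized counts were 2411, 2444 and 2773 in control and 2188, 2294 and 2172 in DHT. Every DHT library was below every control library, with means of 2543 ± 200 against 2218 ± 66.3 (SD, n = 3 each). The log2 difference was -0.19 (SE 0.06, 95% confidence interval -0.32 to -0.06), with an adjusted p of 0.064 in limma. The call depended on the scaling, because the adjusted p was 0.036 with quantile normalization and 0.039 with upper-quartile scaling, the latter chosen after the data were seen. Here control library 3 was the highest, and without it the difference was -0.13 (adjusted p 0.099 in limma).

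*Smo* (chr6:29735503-29761365, plus strand, ENSMUSG00000001761) encodes the membrane protein that passes the signal on when PTCH1 is bound. Normalized counts of *Smo* were 5341, 5601 and 5644 in control and 5429, 5462 and 5550 in DHT. The groups overlapped, and all 3 DHT values lay inside the control range. The log2 difference was -0.01 (95% confidence interval -0.09 to 0.07, adjusted p 0.87 in limma), which bounds any difference in either direction more tightly than for any other Hedgehog gene here.

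*Sufu* (chr19:46396896-46488804, plus strand, ENSMUSG00000025231) encodes the cytoplasmic protein that holds GLI factors back. The control libraries had normalized counts of 1712, 1897 and 1948, and the DHT libraries of 1959, 1966 and 1882. The groups overlapped, with control library 1 the lowest of all. *Sufu* differed by 0.07 on the log2 scale (95% confidence interval -0.06 to 0.19, adjusted p 0.51 in limma).

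*Gli1* (chr10:127329882-127341974, minus strand, ENSMUSG00000025407) encodes the GLI factor that acts mainly as an activator. Its normalized counts were 17.8, 12.1 and 25.9 in control and 22.5, 33.8 and 20.7 in DHT, from 13 to 28 and 19 to 31 reads. The groups overlapped, and at these counts a moderate difference in either direction was not detectable. DHT and control differed by 0.47 on the log2 scale, with a 95% confidence interval of -0.27 to 1.22 and an adjusted p of 0.42 in limma. Exons of *Arhgap9* and *Gm47200* on the other strand overlap 327 of its 4995 exonic bases.

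*Gli2* (chr1:118834132-119053619, minus strand, ENSMUSG00000048402) encodes the factor known as the main activator downstream of SMO. Normalized counts of *Gli2* were 63.3, 79.9 and 98.2 in control and 136.0, 63.3 and 83.8 in DHT. DHT library 1 was the highest of all, while DHT library 2 was level with control library 1, the lowest of the control libraries. On the log2 scale the difference was 0.18 (95% confidence interval -0.45 to 0.80, adjusted p 0.74 in limma), and it was -0.12 without DHT library 1.

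*Gli3* (chr13:15463235-15730026, plus strand, ENSMUSG00000021318) encodes the factor known as the main repressor when no ligand is bound. For *Gli3* the normalized counts were 269.1, 340.1 and 412.2 in control and 375.8, 360.0 and 320.0 in DHT. All 3 DHT values lay inside the control range. On the log2 scale the difference was 0.07 (95% confidence interval -0.26 to 0.39, adjusted p 0.83 in limma). Exons of *Gm6556* on the other strand overlap 188 of its exonic bases.

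The GLI factors share a zinc finger region that binds DNA, and their most alike coding stretches of 60 bases are shown because reads from them could be split between the genes. Capitals mark the bases that differ within each pair, 4 in the pair of *Gli1* (coding bases 849 to 908) and *Gli2* (1386 to 1445), 5 in the pair of *Gli1* (1111 to 1170) and *Gli3* (1837 to 1896), and 6 in the pair of *Gli2* (1303 to 1362) and *Gli3* (1492 to 1551):
*Gli1*: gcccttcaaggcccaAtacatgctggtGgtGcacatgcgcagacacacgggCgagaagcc
*Gli2*: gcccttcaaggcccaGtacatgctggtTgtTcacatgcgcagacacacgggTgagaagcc
*Gli1*: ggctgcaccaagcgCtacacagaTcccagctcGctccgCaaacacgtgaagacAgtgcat
*Gli3*: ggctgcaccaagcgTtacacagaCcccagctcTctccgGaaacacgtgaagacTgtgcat
*Gli2*: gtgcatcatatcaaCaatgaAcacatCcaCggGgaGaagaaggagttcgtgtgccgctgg
*Gli3*: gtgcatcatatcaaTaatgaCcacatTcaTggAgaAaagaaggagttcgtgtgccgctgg
The longest run of identical bases in the whole transcripts was 23 for *Gli1* and *Gli2*, 14 for *Gli1* and *Gli3*, and 25 for *Gli2* and *Gli3*. All were far below the read length of 150 bases.

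Levels were compared between genes as normalized counts per kilobase of exon. In control the order of the mean levels was *Smo* (984), *Sufu* (241), *Ptch1* (179), *Dhh* (153), *Ihh* (51.8), *Gli3* (35.5), *Gli2* (11.7) and *Gli1* (3.73). The ranges over the 3 control libraries overlapped for *Ptch1* and *Dhh* and for *Ihh* and *Gli3*, so the ranges alone do not order these neighbours. Within a library, *Ptch1* was above *Dhh* in 3 of 3 control libraries, and *Ihh* above *Gli3* in 2 of 3. In DHT the order was *Smo* (975), *Sufu* (252), *Dhh* (188), *Ptch1* (156), *Gli3* (36.7), *Ihh* (24.9), *Gli2* (13.7) and *Gli1* (5.14), with no overlap between neighbours. *Dhh* thus stood above *Ptch1*, and *Gli3* above *Ihh*, in each of the 3 DHT libraries. Averaged over all 6 libraries, the level of *Smo* was above those of 87.6% of 16259 genes and that of *Sufu* above 59.1%. *Dhh* and *Ptch1* were near the middle, above 50.8% and 50.6%. The GLI factors and *Ihh* were in the lower part, with *Ihh* above 27.9%, *Gli3* above 27.2%, *Gli2* above 15.0% and *Gli1* above 4.75%.

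The rest of the pathway was followed with 54 genes in 5 lists, of which 49 were analysed. By limma, 4 were higher, 2 were lower and 43 did not pass the adjusted p threshold, and none passed both thresholds. The background over all genes was 11.2%, and the median log2 difference of the 49 was -0.0074. At an unadjusted p of at most 0.05 there were 13 of 49, and in 15 of 49 the groups did not overlap, against 25.2% and 30.6% of all genes. The counts of each list below are to be read against the same shares, 11.2% by adjusted p and 25.2% by unadjusted p. All 6 calls were lost with the replicate number as a block, without the intensity trend, without DHT library 2 and without DHT library 3.

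Among genes that lipidate or release the ligands, 0 of 6 analysed passed the adjusted p threshold in limma and 2 (*Scube1* and *Disp1*) had an unadjusted p of at most 0.05. *Shh*, the remaining ligand of the family, was not analysed here. *Scube3*, a secreted protein of the SCUBE family, had the highest level per kilobase of this list, with 371 ± 69.7 in control and 347 ± 40.4 in DHT (SD, n = 3, adjusted p 0.74 in limma).

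Among the coreceptors, 1 of 4 analysed was called. *Gas1*, a membrane coreceptor that helps ligands bind PTCH1 (chr13:60174405-60177365, minus strand, ENSMUSG00000052957), rose. Its normalized counts were 405.7, 366.1 and 317.8 in control and 463.8, 711.3 and 765.1 in DHT. The groups did not overlap, although DHT library 1 was much closer to the control libraries than the other DHT libraries were. *Gas1* differed by 0.80 on the log2 scale (SE 0.17, 95% confidence interval 0.41 to 1.20, adjusted p 0.020 in limma). Its adjusted p was 0.059 with the replicate block, 0.10 without the intensity trend, and between 0.0015 and 0.084 when each library was left out in turn. Exons of *Gm48488* on the other strand overlap 589 of its 2961 exonic bases. *Boc*, another coreceptor and the highest per kilobase of this list, stood at 255 ± 39.9 in control and 242 ± 34.9 in DHT (SD, n = 3, adjusted p 0.77 in limma).

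Of 18 kinases, ligases and SMO modulators, 1 was higher, none was lower and 17 were not called in limma, and 3 had an unadjusted p of at most 0.05. *Spop*, which recruits GLI proteins to a ubiquitin ligase, rose by 0.18 (SE 0.04, adjusted p 0.031 in limma), from a mean of 5879 ± 161 to 6657 ± 310 (SD, n = 3). *Prkar1a*, a regulatory subunit of the protein kinase A that phosphorylates GLI proteins, had the highest level per kilobase, 3598 ± 97.7 in control and 3755 ± 43.1 in DHT (SD, n = 3, adjusted p 0.33 in limma).

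Of 12 genes of cilium transport, 1 was higher, 1 was lower and 10 were not called. *Ift80*, a subunit of the intraflagellar transport complex, rose by 0.17 (adjusted p 0.041 in limma), from 1037 ± 14.6 to 1167 ± 13.8 (SD, n = 3). *Inpp5e*, a phosphatase of ciliary phosphoinositides, fell by 0.19 (adjusted p 0.045 in limma), from 1032 ± 41.0 to 904 ± 12.6 (SD, n = 3). *Kif3a*, a motor subunit needed to build cilia, had the highest level per kilobase, 464 ± 27.3 in control and 462 ± 22.3 in DHT (SD, n = 3, adjusted p 0.95 in limma).

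Of 9 genes analysed that GLI factors are known to activate in other tissues, 1 was higher, 1 was lower and 7 were not called. *Foxf1*, *Foxf2* and *Foxl1* were not analysed here. *Mycn*, a growth regulator, had normalized counts of 151.4, 131.0 and 118.6 in control and 190.8, 216.0 and 180.7 in DHT, a rise of 0.55 (SE 0.13, adjusted p 0.026 in limma). *Ccnd1*, which encodes cyclin D1, had 219.7, 155.2 and 176.0 in control and 87.1, 123.3 and 127.3 in DHT, a log2 difference of -0.71 (SE 0.18, adjusted p 0.039 in limma). The groups did not overlap for either gene, and they moved in opposite directions. *Ccnd2*, the cyclin with the highest level per kilobase of the list, stood at 1696 ± 90.9 in control and 1555 ± 27.8 in DHT (SD, n = 3, adjusted p 0.12 in limma).

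**Figure D4:**
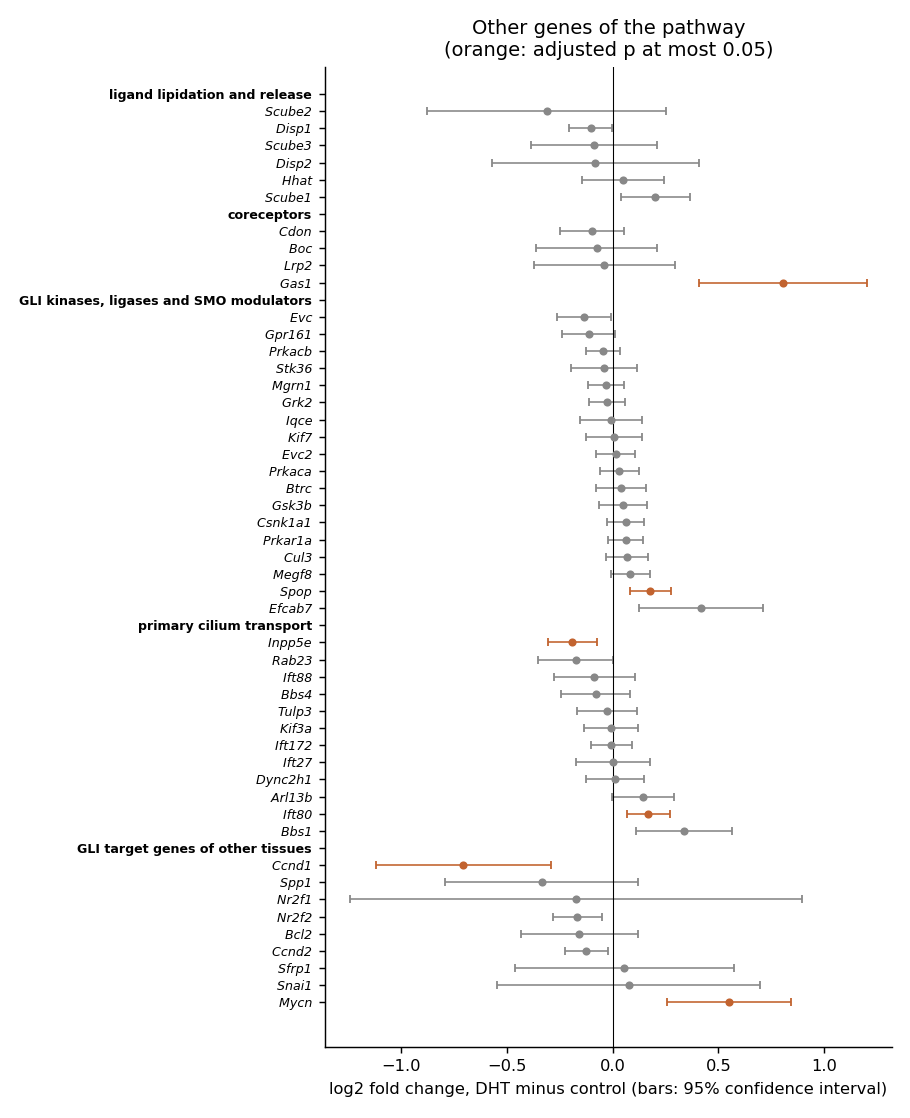
Difference between DHT and control (x axis, log2 of normalized count + 1) of 49 other pathway genes with 95% confidence intervals, grouped by role and ordered by the difference. The 6 called genes are orange (*Gas1*, *Spop*, *Ift80* and *Mycn* higher, *Inpp5e* and *Ccnd1* lower), and *Gas1* at 0.80 lies farthest to the right.

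Markers of the cells that could have come with the GCs were examined because Hedgehog ligands and responding cells belong to different compartments. The smooth muscle sum did not overlap between groups, and of its 5 genes *Acta2* (log2 difference 0.76, adjusted p 0.0056), *Myh11* (0.67, adjusted p 0.013) and *Cnn1* (0.67, adjusted p 0.037) were higher in limma. For these marker counts the shares over all genes are again 11.2% called by adjusted p, 25.2% by unadjusted p and 30.6% without overlap. The granulosa sum did not overlap between groups, and limma called 1 of its 11 genes higher (*Hsd17b1*, 0.48) and 4 lower (*Kitl*, -0.85, *Inha*, -0.61, *Esr2*, -0.36, and *Foxl2*, -0.15). *Inha*, the inhibin subunit, had the highest level per kilobase and set the difference of the sum, because the other 10 genes summed to 24922 to 29470 in control and 27287 to 30286 in DHT, which overlap. The theca sum did not overlap between groups either, with no gene of the 3 called by adjusted p and 2 at an unadjusted p of at most 0.05 in limma. Those 2 had opposite signs, *Aldh1a1* with a log2 difference of -0.23 (adjusted p 0.051 in limma) and *Srd5a1* with 0.26 (adjusted p 0.088 in limma). *Srd5a1*, a steroid 5α-reductase, is known to be expressed in GCs as well, so its values cannot be read as a level of theca cells. The theca sum was nearly all *Aldh1a1*, and without that gene it was 106 to 120 in control and 131 to 135 in DHT. The sum thus follows *Aldh1a1* and cannot be read as a level of theca cells either.

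The sum of 7 stroma markers, led by *Fbln1*, overlapped between groups (914 to 1112 and 1056 to 1083), and limma called 0 of them by adjusted p and 1 (*Dcn*) by unadjusted p at the same threshold. *Dcn*, which encodes the matrix proteoglycan decorin, had normalized counts of 318.6, 148.7 and 103.8 in control and 66.5, 105.8 and 77.3 in DHT (log2 difference -1.05, 95% confidence interval -1.86 to -0.24, adjusted p 0.10 in limma), with control library 3 among the DHT values. The log2 difference was negative for 5 of the 7 stroma markers. Of 4 endothelial markers, of which *Pecam1* was the highest per kilobase, limma called none by adjusted or unadjusted p. Of 4 immune markers, among which *Lyz2* was the highest per kilobase, *Csf1r* fell by 0.64 (adjusted p 0.027 in limma). The other 3 did not pass the threshold, and *Ptprc*, named after its values were seen, had the opposite sign, with normalized counts of 5.94, 8.36 and 11.1 in control and 15.7, 12.0 and 15.2 in DHT (log2 difference 0.72, 95% confidence interval -0.03 to 1.47, adjusted p 0.22 in limma). The sum of 7 oocyte markers, led by *Gdf9*, ranged from 166 to 398 in control and from 41.9 to 282 in DHT, with none called by adjusted or unadjusted p in limma, and with *Zp3* and *Oosp1* at 0 in DHT library 2. The sum in control library 3 lay within the range of the other 5 libraries for 6 of the 7 marker lists, and was the highest of all for the theca list. The part of the smooth muscle, granulosa, theca, stroma and immune markers in the values of *Ihh*, *Dhh*, *Ptch1* and *Gas1* was not tested.

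The genes whose pattern over the 6 libraries was most like that of *Ihh* were then listed, by the root mean square difference of centred log2 values among 12705 genes with a mean of at least 50. They were *Ackr3* (0.136), *Fgd5* (0.189), *Gucy1a1* (0.190), *Rai2* (0.192) and *Gm29233* (0.196). *Ackr3*, which encodes an atypical chemokine receptor, had normalized counts of 142.5, 102.2 and 48.2 in control and 38.2, 42.5 and 55.5 in DHT, again with control library 3 among the DHT values. *Gucy1a1*, a subunit of soluble guanylate cyclase, had 312.7, 260.2 and 182.5 in control and 104.7, 126.5 and 143.7 in DHT. Of the 5 it was the only gene with an adjusted p of at most 0.05 (0.014 in limma).

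Promoter windows from RefSeq (GRCm38.p6, 250 bases before to 50 after the annotated start) were found for 8 of the 9 listed genes, *Hhip* included and *Gli1* not. The RefSeq start used for *Ptch1* lies 7863 bases inside the gene span given above, and that for *Gli3* 488 bases inside, so these windows are not at the 5′ ends of those spans. Both strands were searched for the GLI core GACCACCCA, for the androgen receptor hexamer AGAACA, and for that hexamer followed by any 3 bases and TGTTCT, a pair that contains the hexamer. The GLI core was in none of the 8 windows, and in 0.253% of 32851 promoters of the same length. The hexamer was in the window of *Sufu* alone, on the minus strand at base 77, and in 19.0% of all promoters. The spaced pair was in none of the 8, and in 0.00913% of all promoters. These matches describe letters in short windows and not binding.

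**Figure D5:**
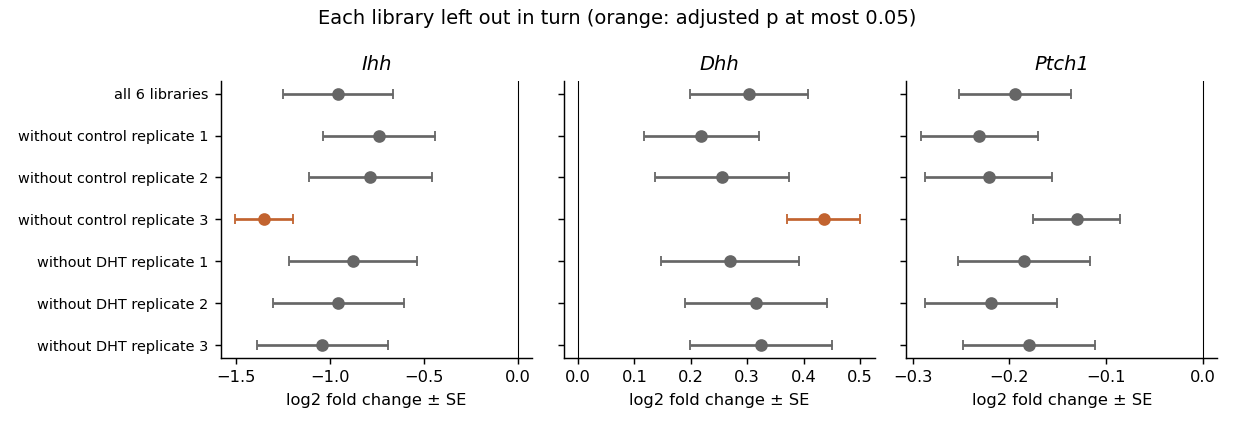
Log2 difference ± SE of *Ihh*, *Dhh* and *Ptch1* (x axes of different range) with all 6 libraries and with each library left out, orange where the adjusted p was at most 0.05. *Ihh* and *Dhh* are orange without control library 3 only, and *Ptch1* ranges from -0.23 to -0.13 without being called.

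Each library was left out in turn to show how far single libraries carry these values. The difference of *Ihh* then ranged from -1.35 to -0.74 and that of *Dhh* from 0.22 to 0.44, each with the same sign in all 6 fits. The range for *Ptch1* was -0.23 to -0.13, also with 1 sign throughout. *Sufu* and *Gli1* kept a positive sign in all 6 fits (0.01 to 0.10 and 0.21 to 0.73), whereas *Smo*, *Gli2* and *Gli3* each changed sign in 1 of them.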

How the data were processed

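RNA-seq was performed on 6 libraries of cultured GCs, 3 control and 3 DHT. Reads were trimmed with Trimmomatic 0.36, mapped to GRCm38 with STAR 2.5.2b and counted as unique reads in exons with featureCounts of Subread 1.5.2. Whether counting used strand is not given in the sources used here. The authors deposited a signal per gene, namely its reads scaled with DESeq2 size factors, called a normalized count here. All 16300 values of each library were whole multiples of its step within a tolerance of 0.01, from which the quoted reads were estimated. These are uncertain, since the step of control library 1 (0.989) is close to 1 and the smallest value above 0 in control library 2 and DHT library 1 was 2 steps, and no count model was run on them. The log2 fold changes, p-values and adjusted p-values that the authors deposited hold their own comparison and were not used.

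Normalized counts were put on the scale of log2(value + 1) and fitted by limma 3.58.1 under R 4.3.3, using the intensity trend and only genes whose mean in the 6 libraries reached 10, and adjusted by Benjamini-Hochberg over all genes tested. The script was tested on simulated data. The exact permutation test was used for the ligand ratio. Python 3.11.15 was used for levels, exon overlaps (GENCODE annotation of GRCm38) and motifs. All Hedgehog genes were described. Of the other lists, called genes, the highest gene per kilobase and markers at 0 were named, with the 5 genes nearest to *Ihh*. *Scube1*, *Disp1*, *Dcn*, *Ptprc* and *Srd5a1* were named after their values were seen. The Hedgehog genes and the lists were chosen with earlier results of these data known.

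Alternatives were pseudocounts of 0.5 and 8, no filter, a mean of at least 50, quantile normalization, no intensity trend, the replicate number as a block and each library left out. Upper-quartile scaling was added after the data were seen.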

Additional observations from a re-analysis of the deposited data

How the results depend on the processing

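With all 6 libraries, 0 Hedgehog genes passed the adjusted p threshold. The count was 1 (*Ptch1*) with quantile normalization (-0.21) and with upper-quartile scaling (-0.22), and 0 to 2 when each library was left out, and 0 to 1 passed both thresholds, the higher values without control library 3. Leaving out libraries in turn gave *Ihh* -1.35 to -0.74, *Dhh* 0.22 to 0.44, *Ptch1* -0.23 to -0.13, *Smo* -0.037 to 0.0028 (positive without control library 3), *Gli2* -0.12 to 0.43 (negative without DHT library 1) and *Gli3* -0.093 to 0.21 (negative without control library 1). Of 111 values of single Hedgehog genes under alternatives, 104 kept their sign and their side of the threshold, 4 newly passed it and 3 changed sign. The adjusted p ranged over the alternatives from 0.00070 to 0.21 for *Ihh*, from 0.0029 to 0.27 for *Dhh* and from 0.036 to 0.19 for *Ptch1*. *Gli1* gave no value at a mean of at least 50. The log2 ratio of the ligands ranged from -1.79 to -0.96.

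Other pathway genes called fell from 6 to 0 without the intensity trend and to 0 with the replicate block, and were 0 to 6 with libraries left out. Over all genes, calls by adjusted p were 1823 with the chosen settings, 804 without the intensity trend, 990 with the block (986 shared) and 937 to 2103 with libraries left out. Past both thresholds there were 213, then 131 at a mean of at least 50 and 140 to 285 with libraries left out. The cause was not tested. Whether control and DHT libraries with equal replicate numbers came from 1 pool of cells is not given in the sources used here. Their centred values correlated at 0.0058, 0.067 and -0.24 for numbers 1, 2 and 3. Between unequal numbers the correlations ran from -0.19 to 0.23, and not every library correlated best with its own number. With only 3 libraries per group these correlations depend on each other, so they cannot decide whether the numbers pair the libraries. No Hedgehog gene was called with the block. Count models in edgeR and DESeq2 and TMM scaling were not run. The low counts of *Gli1* limit what differences can be seen. For *Gli2* the interval was also wide (-0.45 to 0.80), with normalized counts of 63.3 to 136.0 in the DHT libraries. Intervals cover only the spread between 3 libraries per group.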
